A study of Drosophila melanogaster with 4 samples.

Results

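The Enhancer of split complex and the gene groucho lie side by side on chromosome arm 3R of Drosophila melanogaster, and the sites bound by the chromatin protein Cmi across them are described here. Cmi (Cara Mitad, CG5591) is part of the Trithorax-related complex, a histone methyltransferase that marks enhancers by methylation of lysine 4 on histone H3. Its binding was profiled by ChIP-seq in embryos labelled 0 to 8 h, with 2 libraries from chromatin precipitated by a rabbit polyclonal anti-Cmi antibody and 2 from input DNA. All 4 libraries came from the strain Exd-GFP-13T (genotype w; PBac{y[+]-attP-3B}VK00033), so the input and the precipitated chromatin alike carried a transgene in which the stop codon of extradenticle, a Hox cofactor gene, is replaced by GFP. Whole embryos of unstated sex were used, so all tissues are mixed, and the extraction protocol in the labels describes another stock and an older collection window. The series holds 1 list of 3110 peaks, each placed on FlyBase release 5 and given 1 score. Values of single libraries are not part of it, so neither sequencing depth nor agreement between replicates is known.

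The members are all peaks with a midpoint from 21820000 to 21880000 on 3R. These bounds were given as the position of the complex and gro in release 5 and were not checked against an annotation of that build. There are 17 of them, out of 685 peaks on 3R and 3110 in all. The interval was chosen by its genes and with the number and positions of its peaks in this list already known. Counts, positions, widths and scores are therefore given as a description, with no test.

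The Enhancer of split genes are the classical targets of Notch signalling. When Notch is cleaved, its intracellular part joins the DNA-binding protein Suppressor of Hairless and switches these genes on, and the proteins they encode keep the responding cell from becoming a neural precursor. In the early embryo this is the step, known as lateral inhibition, that sets the number of neuroblasts in the neurogenic ectoderm.

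The 8 genes followed here were all found in the release 6 gene table, which is of another build than the peaks and was used only for names and gene order. Along 3R the order is E(spl)mdelta-HLH, E(spl)mgamma-HLH, E(spl)mbeta-HLH, E(spl)m3-HLH, E(spl)m5-HLH, E(spl)m7-HLH, E(spl)m8-HLH and gro. The first 7 encode basic helix-loop-helix repressors. Of these, E(spl)mgamma-HLH is known for its expression in neural stem cells, E(spl)mdelta-HLH as a marker of the R4 photoreceptor of the eye, E(spl)mbeta-HLH for its role in wing vein patterning, and E(spl)m8-HLH as the gene altered in the dominant allele that gave the complex its name. The last gene, gro, encodes Groucho, the co-repressor with WD repeats that the bHLH repressors recruit through a short motif at their C-terminal end. Between the bHLH genes stand 4 genes of the Bearded family (E(spl)malpha-BFM, E(spl)m2-BFM, E(spl)m4-BFM and E(spl)m6-BFM), whose products restrain the ubiquitin ligase Neuralized, and Kaz-m1, also known as E(spl)m1, which encodes a protein of the Kazal type of protease inhibitor. From E(spl)mdelta-HLH to gro the table lists 13 protein-coding genes and 6 lncRNA genes, with CG43116 as the neighbour before E(spl)mdelta-HLH and Exo84 after gro. Because the gene positions at hand are of another build, single peaks are not assigned to single genes, and they are named by position only.

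Cmi peaks were spread over most of the interval. The 17 peaks spanned 46.9 kb, from 21821829 to 21868686, and covered 16988 bp, which is 28.3% of the interval and 36.3% of the span. In successive blocks of 10 kb the interval held 4, 2, 3, 5, 3 and 0 peaks. The covered share of the same blocks was 42.5%, 33.5%, 23.9%, 27.5%, 42.5% and 0%. The blocks with most covered bases were thus the first and the fifth, while the fourth, which held most peaks, had 4 of 625 bp or less and 1 of 1024 bp.

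**Figure D1:**
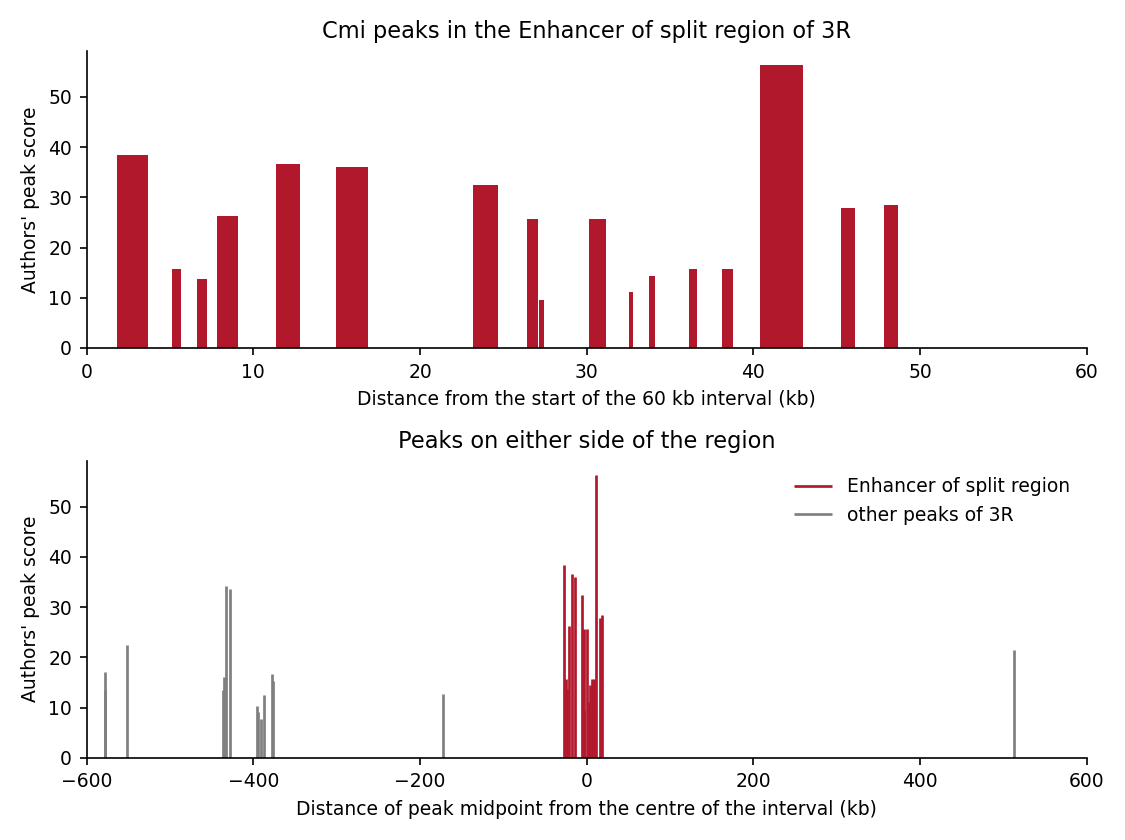
Upper panel: each of the 17 peaks as a bar whose width is the peak's extent and whose height is the authors' score, by distance in kb from the start of the interval; lower panel: all peaks within 600 kb of the interval's centre. The peaks reach up to 48.7 kb, the highest score is 56.37, and no other peak lies within 145 kb before or 493 kb after them.

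The peaks fell into 2 runs when midpoints within 5 kb of each other were chained. The first run held 6 peaks between 21821829 and 21836903, a length of 15.1 kb of which 50.5% was covered. The second held 11 peaks between 21843187 and 21868686, a length of 25.5 kb of which 36.8% was covered. The median score was 31.1 in the first run and 25.7 in the second, and the median width 1332 bp and 635 bp. Between the runs lay the widest gap of the interval, 6283 bp without a peak.

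The first run had wide peaks of high score at both ends. It began with the peak at 21821829 to 21823686, with a score of 38.47 and a width of 1858 bp, which is the second highest score of the interval and the peak nearest to its lower bound. Next to it lay a pair of lower peaks at 21825102 to 21825662 (score 15.75) and 21826626 to 21827216 (score 13.80). The run went on with a peak at 21827836 to 21829078 (score 26.24, 1243 bp). It closed with the next highest scores of the interval, 36.64 at 21831372 to 21832792 (1421 bp) and 36.03 at 21834972 to 21836903 (1932 bp, the second widest).

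The second run opened with a peak of score 32.45 at 21843187 to 21844648 (1462 bp), the fifth highest. A peak of score 25.70 at 21846416 to 21847050 was parted by 115 bp from the peak with the lowest score of the interval, 9.56, at 21847166 to 21847453. Another peak of score 25.70 followed at 21850148 to 21851171 (1024 bp). Then came 4 peaks in a row, from 21852557 to 21858755, with scores of 11.09, 14.42, 15.75 and 15.75. Their widths were 246, 365, 487 and 625 bp, all below the interval's median of 838 bp. The widths of 487 and 625 bp were above the 3R median of 471 bp.

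The strongest and widest peak of the interval stood directly after this row of narrower peaks. It lay at 21860399 to 21862963, was 2565 bp wide and had a score of 56.37, rank 34 by score and rank 9 by width among the 685 peaks of 3R. The interval closed with 2 peaks of middle size for it, at 21865231 to 21866068 (score 27.89, 838 bp) and at 21867840 to 21868686 (score 28.44, 847 bp). The latter is the nearest to the upper bound. On 3R both were above the upper quartiles of score (23.77) and width (783 bp). The last 11.3 kb of the interval held no peak.

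Outside the bounds there was no peak close by. The last peak before the interval lay at 21677002 to 21677278 (277 bp, score 12.71), with its midpoint 143 kb below the lower bound. The first after it lay at 22361955 to 22362840 (886 bp, score 21.51), 482 kb above the upper bound. The bounds therefore cut through no group of peaks, and the 60 kb on either side held 0 peaks each. The peak-free stretch before the first member was 145 kb long and that after the last member 493 kb, ranks 56 and 4 among the 684 gaps between neighbouring peaks on 3R, of which the longest was 689 kb. Within 685 kb of 3R, from the peak before to the peak after, the 17 peaks were the only ones in the list. With the depth unknown, the absence of a call does not show that Cmi was absent there.

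The spacing inside the interval was mostly short. The 16 gaps between neighbouring peaks, edge to edge, had a median of 1705 bp (quartiles 1280 and 2201 bp) and ran from 115 to 6283 bp. On the whole of 3R the median of 684 gaps was 6336 bp (quartiles 701 and 37463 bp). Gaps of at most 3 kb made up 15 of the 16 in the interval and 275 of the 684, or 40.2%, on 3R. This contrast largely restates the peak count, since 17 peaks within 60 kb leave little room for long gaps. The gaps of the interval run between its members only. Those of 3R include the gaps between groups of peaks, among them the flanks of 145 kb and 493 kb. The lower quartile of 3R was below that of the interval, so the closest neighbours of the arm stood closer together than most neighbours here.

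Compared with stretches of the same length, the interval was among the fullest of the arm. Stretches of 60 kb were slid along 3R in steps of 1 kb, from the first to the last peak of the arm, which gave 27704 stretches. Of these, 50.6% held no peak, and the mean was 1.48 peaks, so the 17 peaks of the interval were 11.5 times the mean. Only 82 stretches, or 0.296%, held 17 or more, with a maximum of 20. These stretches overlap each other and the interval itself, and they belong to 3 separate places, of which 2 lie elsewhere on the arm. The covered share of 28.3% stood against a mean of 1.55% and a maximum of 30.1%. A share as large or larger was found in 46 stretches, or 0.166%, again at 3 places, 2 of them elsewhere. A single place outside the interval had stretches that reached both values. The interval was picked with its peaks known, so these shares rank it on the arm and carry no p-value.

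**Figure D2:**
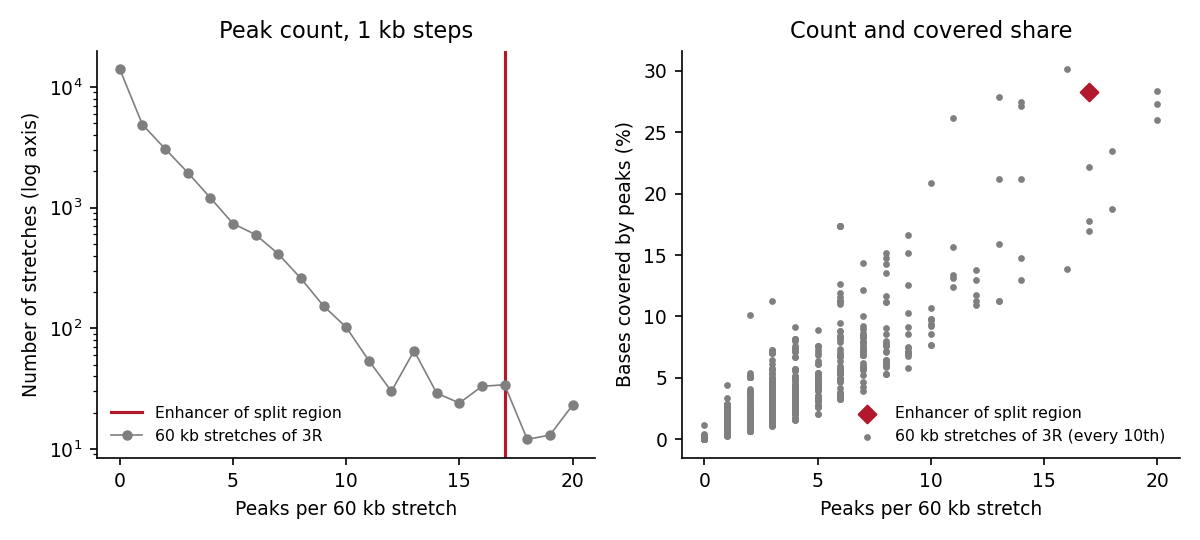
Left: number of 60 kb stretches of 3R (log axis) by the number of peaks they hold, with the Enhancer of split region as a vertical line at 17. Right: percent of bases covered by peaks against the number of peaks, with the region as a diamond at 17 peaks and 28.3%, and 1 in 10 stretches as grey points. Few stretches lie at or beyond the region on either axis.

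The rank of the interval on the arm depended on how peaks were joined and how strong they had to be. With peaks joined when their edges lay within 1 kb, the interval held 13 peaks and no stretch elsewhere on 3R held more than 10. By covered share it was not first under this rule, with 32.7% against up to 33.0% elsewhere and 6 other stretches that reached its share. Joined within 500 bp, it held 16 peaks, a count that 6 other stretches reached, while 57 reached its covered share of 28.5%. With only peaks above the median score of the whole list, which is 15.75, the interval kept 10 peaks and no other stretch held more than 9, but 20 other stretches reached its covered share of 23.0%, up to 24.1%. Its 3 peaks with a score of exactly 15.75 were left out by this rule. Among peaks above the upper quartile of the list (28.44), in contrast, the interval kept 5 and other stretches reached 8, with 75 stretches elsewhere that held 5 or more and 50 that reached its covered share of 15.4%. The interval's peak with a score of exactly 28.44 was left out by this rule. All these counts are out of 27584 stretches that do not touch the interval, or 27117 for the upper quartile. Such stretches overlap each other at steps of 1 kb, so their counts are not numbers of separate places.

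The 3 other separate stretches with most peaks can be set beside the interval. That from 27492050 to 27552050 held 20 peaks with a median score of 13.9 and a median width of 464.5 bp, and 28.3% of it was covered, as much as the interval at this precision. That from 17411050 to 17471050 held 19 peaks with a median score of 13.7 and a median width of 502 bp, and 19.2% was covered. That from 12027050 to 12087050 held 16 peaks with a median score of 21.2 and a median width of 828 bp, and 30.1% was covered. It was thus close to the interval in count, cover and median width. The interval reached a like cover with 17 peaks of median score 25.7 and median width 838 bp, but without any score near the highest ones of these stretches (56.37 in the interval, against 72.38, 84.65 and 176.1).

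In all, 9 other separate stretches of 60 kb on 3R held 10 or more peaks. Their median scores ran from 12.1 to 21.2 and their median widths from 340.5 to 828 bp, each below the medians of the interval. The largest of these widths, 828 bp, was close to the 838 bp of the interval. With 5 kb cut from each end, the interval's median width was 736.5 bp. None of the 9 stretches had more than 100 kb without a peak on both sides. The shorter of the peak-free flanks was 145 kb for the interval and at most 60.3 kb for the others (median 24.5 kb), while 5 of the 9 had a flank of over 100 kb on one side. The interval was chosen with its peaks known. The other stretches were placed by peak count and can cut longer groups of peaks, so the flanks are not measured alike. The minimum of 10 peaks and the limit of 100 kb were chosen after the values had been seen.

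**Figure D3:**
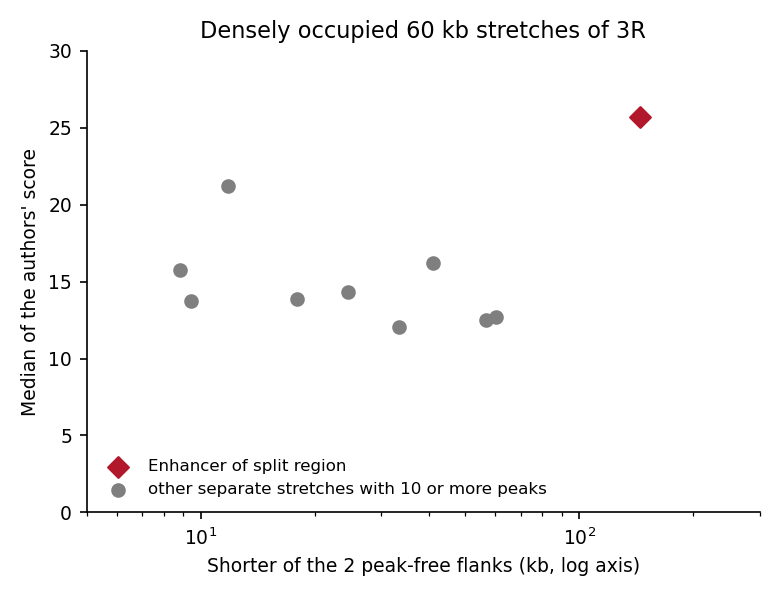
Median of the authors' score against the shorter of the peak-free flanks (kb, log axis) for the Enhancer of split region (diamond) and for the 9 other separate 60 kb stretches of 3R with 10 or more peaks (circles). The region lies at 145 kb and 25.7, above and to the right of all 9. The 9 stretches were placed by peak count and can cut longer groups of peaks.

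Most scores in the interval were above the median of the arm, and the highest of them had rank 34 on it. The median was 25.7 (quartiles 15.75 and 32.45, range 9.56 to 56.37) for the 17 peaks and 13.99 (quartiles 10.3 and 23.5, range 6.09 to 209.5) for the other 668 peaks of 3R. Above the median of all 3R peaks (14.36) lay 14 of the 17 peaks, and above the upper quartile of the other peaks of 3R lay 10. Against the whole list, whose median is 15.75, 10 of the 17 lay above the median and 7 at or below it. The whole range of the interval lay inside that of the other peaks. The score has no scale in the file. Its recurrent values match −log10 of Poisson tail probabilities of whole read heights over a background of 31.1 reads (77 of 84 recurrent values within 0.0061). In the interval 15 of the 17 scores lay on this series, 88.2%, compared with 68.4% of the other peaks of 3R. Read on that scale they stand for heights of 72 to 156 reads, or 2.31 to 5.01 times the background, with a median of 3.44 times, where the other peaks of 3R on the series had a median of 2.76 times and a maximum of 9.51 times. The 2 scores off the series were 38.47, which lies 0.0132 from the step for 129 reads, and 13.80, which lies 0.185 from the nearest step. Ties were present in the interval: 3 peaks shared the score 15.75, the step for 87 reads, and 2 shared 25.70, the step for 107 reads.

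Peaks of the interval were wide. Their median width was 838 bp (quartiles 561 and 1421 bp, range 246 to 2565 bp), against 464 bp (quartiles 295 and 772 bp, range 201 to 4054 bp) for the other peaks of 3R. More than 1 kb was reached by 7 of the 17 peaks (41.2%) and by 103 of the other 668 (15.4%). The 3 widest peaks alone made up 37.4% of the covered bases.

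Width and score rose together on the arm, so widths were also set side by side at like scores. At scores up to 20 the median width was 487 bp for 7 peaks of the interval and 336 bp for 450 other peaks of 3R (quartiles 256.5 and 506 bp). Above 20 and up to 30 it was 847 bp for 5 peaks of the interval and 660 bp for 103 others (quartiles 528.5 and 1000 bp). Above 30 and up to 50 it was 1660.0 bp for 4 peaks of the interval and 987 bp for 73 others (quartiles 753 and 1354 bp). In this last range all 4 peaks of the interval, from 1421 to 1932 bp, were wider than the upper quartile of the others. The peak of 2565 bp compares with a median of 1219 bp (quartiles 981.5 and 1931 bp) for 27 others above 50 and up to 80. In every range the median of the interval was the larger, but at scores up to 30 it lay between the quartiles of the other peaks. Over the 17 peaks Spearman's rho of score and width was 0.94 (Pearson's r 0.95), and 0.77 over the other 668 peaks of 3R, as a description, since the peaks share 1 list and 1 caller.

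**Figure D4:**
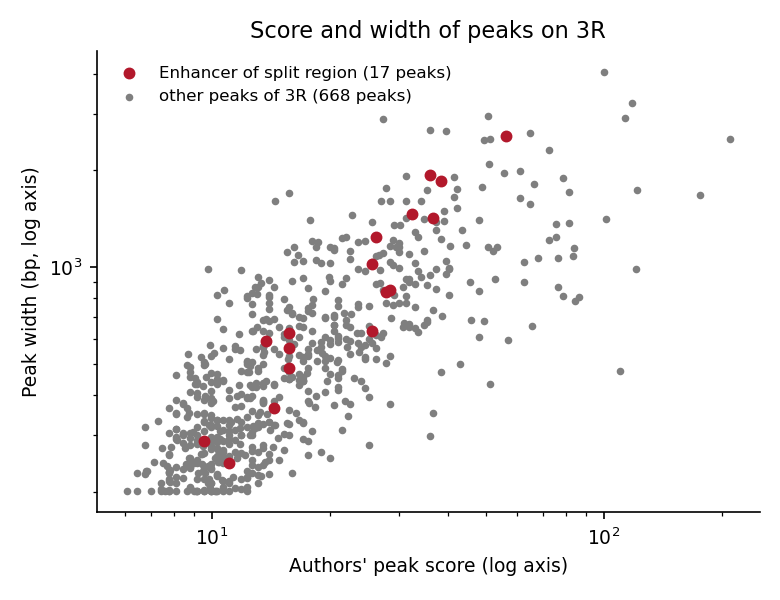
Width in bp against the authors' score for each peak of 3R, both on log axes, with the 17 peaks of the Enhancer of split region in red and the other 668 in grey. The red points follow the grey cloud from 246 bp to 2565 bp and lie in its upper part at scores above 30.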

How the data were processed

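Peaks were deposited by the authors as 1 list for the series, on FlyBase release 5 and with MACS named as the caller, per the file headers. The submitters' processing notes name CASAVA 1.7.0.2 and 1.7.0.3, BWA, MACS2 and the build BDGP5, with no role or order. For BWA and MACS2 the version, the thresholds and any pooling of replicates are unstated in these sources. The deposited score has no stated scale. Its scale was read from the values, by scanning Poisson backgrounds from 5 to 120 reads in steps of 0.002 against scores shared by 5 or more peaks.

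Peaks were assigned by midpoint. Covered bases are the union of peaks, gaps run from edge to edge, and coordinates are 1-based. Stretches were slid between the first and last peak of 3R. Separate stretches were taken in order of peak count, without overlap. Counting was tested on simulated data. Python 3.11.15, numpy 2.4.6, pandas 2.3.3 and matplotlib 3.10.9 were used. No test across samples was possible, as the list has no columns of single libraries. All 17 peaks are described, and those named in full include the 5 highest scores, the 3 widest and those nearest to the bounds. The interval, its genes and the lists were chosen with earlier results of these data known. The planned promoter motifs and protein comparisons were not run, because no sequences were used here.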

Additional observations from a re-analysis of the deposited data

How the results depend on the processing

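In all 57 alternatives were computed, of which 2, the wider tolerances of the score series, were added after seeing the data, and 32 stayed within 1.5 times (counts) or within the 95% binomial interval of the value or the median. The intervals treat bases and overlapping stretches as independent and are too narrow for that reason, so they only sort the shifts and show no stability. Among the 32, the median width reached 1332 bp with peaks above the list median and 1421 bp with joining within 1 kb, against 838 bp. The other 25 moved, as follows. With only peaks above the median score of the list, the count was 10, the covered share 23.0%, the median gap 2293 bp, and 0.0505% and 0.119% of stretches reached the count and the share. Above the upper quartile the count was 5, the covered share 15.4%, the median score 36.64, the median width 1858 bp and the median gap 6984 bp, and 0.253% of stretches reached the share. Joining peaks within 500 bp gave 0.0722% for the count and 0.253% for the share, and joining within 1 kb a covered share of 32.7%, with 0.0505% and 0.0686%. With 5 kb cut from each end the covered share was 30.3% and 0.213% of stretches reached the count. With 5 kb added it was 24.3%, with 0.437% and 0.329%. Stretches side by side gave 0.217% for the count and 0% for the share. They step by 60 kb and are far fewer than at 1 kb steps, so these shares are coarse and depend on where the first stretch starts. Stretches of all major arms gave 0.196% and 0.0391%. These shifts follow from the settings themselves, which keep fewer peaks, fill gaps, move the bounds or change the stretches. No paired analysis was possible because the peaks form 1 list without values of single libraries, and no replicate could be left out. The alternatives for promoter motifs were not run.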
